A study of Mus musculus with 6 samples.

Results

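Transcript abundance was compared between 2 clones of immortalised mouse B cells, Abl.2 and Abl.4, over 11003 of the 37315 genes in the deposited table. A gene was taken when its mean over the 6 libraries of the series was at least 1 TPM, a transcript level scaled to gene length and to the library total. Both clones are labelled female and derive from the F1 of 129S1/SvImJ and CAST/EiJ, and both were grown as untreated controls with 1% DMSO, a solvent, and harvested on day 2. Abl.3, a male clone of the same cross grown in the same way, entered the fit as the remaining 2 libraries. Every group is 1 clone, and its 2 libraries are labelled as repeats of library preparation. The p-values therefore measure the spread between library preparations and not between animals, cultures or independently derived lines, and a difference between Abl.2 and Abl.4 is one between these 2 clones.

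The file headers call the lines Abelson clones. Abelson murine leukaemia virus transforms B-cell precursors through its v-Abl tyrosine kinase, and such lines are commonly held at the pro-B to pre-B stage. In that stage the heavy chain pairs with the surrogate light chain proteins Igll1 and Vpreb, the Rag recombinase cuts the light chain loci, and survival and growth are driven through STAT5, RAS-MAPK and PI3K signalling. The gene Abl2 is distinct from the clone Abl.2, and only the clone is meant below.

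Of 10 defining B-lineage markers all passed the filter, and together they summed to 14150 to 14600 TPM in the 4 libraries. Kit, a receptor of early progenitors, was listed at 0 in each of the 4, and Flt3, another progenitor receptor, lay between 0.57 and 0.77 TPM. No T cell, erythroid or fibroblast marker passed the filter. Of the myeloid markers 2 did, Lyz2 and Itgam, and 1 NK marker, Klrb1c; the sum of the 11 myeloid markers was 159 and 193 TPM in Abl.2 against 89.4 and 77.9 TPM in Abl.4, nearly all of it Lyz2, and Cd14, Adgre1, Csf3r and S100a8 were listed at 0 in all 4. Lyz2, which lies on chromosome 10, was called higher by 1.18, and Itgam was called lower by -2.45, at 0.51 and 0.35 TPM in Abl.2 against 6.89 and 6.74 TPM in Abl.4. Klrb1c was called higher by 1.18, and the NK sum was 14.2 and 16.3 TPM against 5.64 and 6.83 TPM. Of 5 plasma cell markers 4 passed the filter and 0 were called, with sums of 1320 to 1346 TPM in the 4 libraries. Whether other cells had a part in any result below was not tested, and in bulk RNA fewer cells of a type and less RNA per cell cannot be told apart. The TPM give no depth; allelic counts, taken at SNPs in a separate table, totalled 20004393 to 26881211 per library of these 2 clones.

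Abl.2 and Abl.4 differed across much of the transcriptome by limma's moderated test with Benjamini-Hochberg adjustment. Called here means an adjusted p below 0.05, and differences are Abl.2 minus Abl.4 of mean log2(TPM + 1); at low levels the added 1 compresses them. Called genes numbered 3682 of 11003 (33.5%), with 1652 higher in Abl.2 (15%) and 2030 lower (18.4%). A difference of at least 1 was called in 1107 genes (10.1%), 382 higher and 725 lower. Between the replicate libraries of 1 clone, 158 genes in Abl.2 and 170 in Abl.4 differed by that much. Without the first Abl.2 library the count was 1970, and without the second it was 2078. With each library centred on the autosomes other than 4 and 10, 56.2% of the calls were higher in Abl.2 against 44.9% as given, so the balance of directions turns on the scaling. At the filter's edge, Rprm had a mean of 1 TPM and was kept, and Gm13252 and Gm9034 at 0.997 TPM were not. Of the genes tested, 515 had an Abl.2 mean under 1 TPM and 271 an Abl.4 mean under 1 TPM.

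The B-lineage, signalling and metabolic genes were read through 26 lists with 703 distinct genes tested, of which 337 were called (47.9%), above the 33.5% of all genes. The lists were drawn up with earlier results of these data known, so each list's count is given beside the share of all genes as a description. Counts with 1 library left out come from fits that called fewer genes in all. Balance was read as the share of tested members called higher set against the share called lower. The lists furthest from balance were the interferon response, mostly higher in Abl.2, and glycolysis, homing receptors and B-cell receptor kinases, mostly lower.

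**Figure D1:**
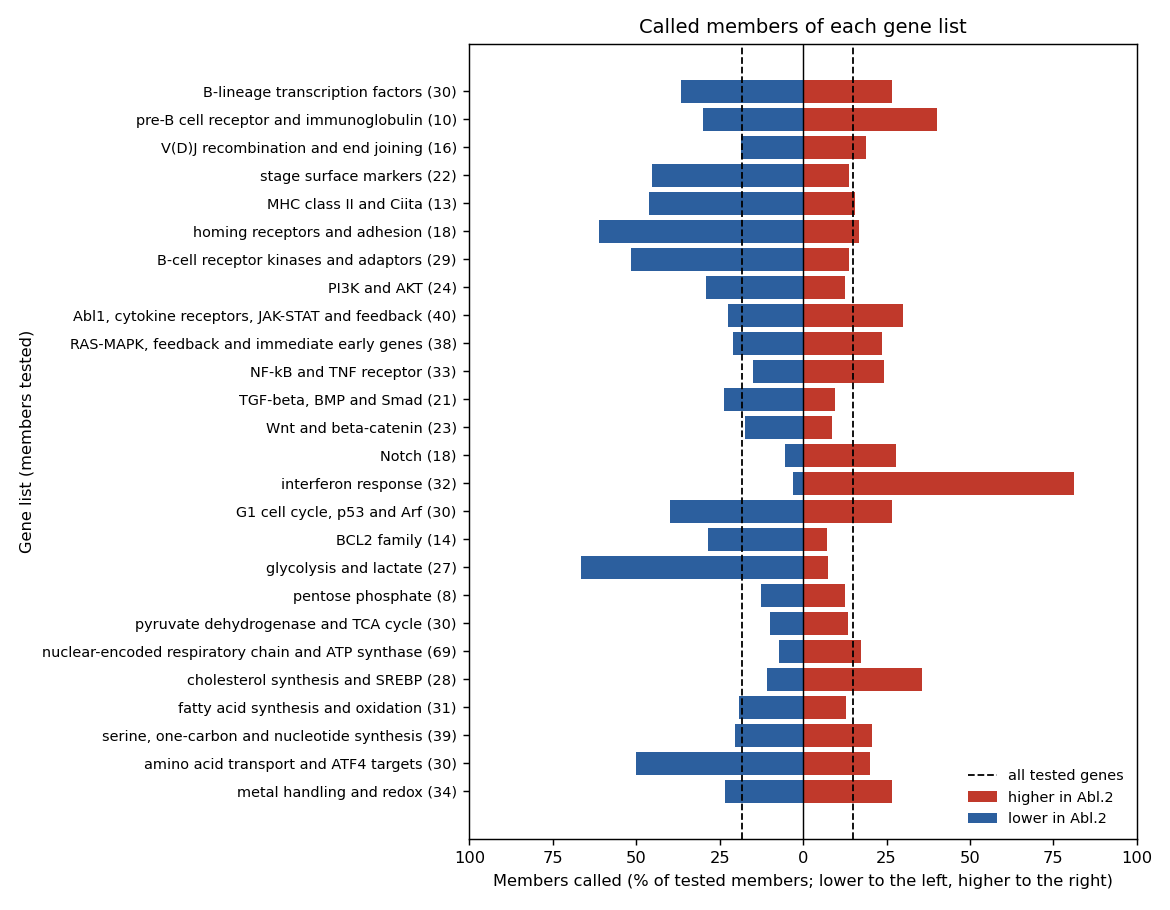
Members called higher (red, right) and lower (blue, left) in Abl.2 as a percentage of the tested members of each list, with the number tested in parentheses; dashed lines mark all tested genes at 15% higher and 18.4% lower. The interferon response extends furthest to the right, with 26 of 32 members, and glycolysis furthest to the left, with 18 of 27.

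MHC class II genes held the largest difference among the B-lineage lists. The classical class II genes encode the alpha and beta chains that display peptides to CD4 T cells, Ciita is their master coactivator, and Cd74 is the invariant chain that guides them. The chains and Ciita were close to absent in Abl.2 and present in Abl.4, while Cd74 was high in both. The region before the H2-Aa start is shown because the class II chain genes share a promoter layout that ends in a Y box, an inverted CCAAT motif. It spans chr17:34287824-34288023 on the minus strand of GRCm38.p6, from RefSeq, is written 5′ to 3′ and ends at the base before the start that RefSeq annotates, which is not the deposited table's start for this gene. Capitals mark the match to CCAAT, searched on both strands, 48 bases before that start.
H2-Aa: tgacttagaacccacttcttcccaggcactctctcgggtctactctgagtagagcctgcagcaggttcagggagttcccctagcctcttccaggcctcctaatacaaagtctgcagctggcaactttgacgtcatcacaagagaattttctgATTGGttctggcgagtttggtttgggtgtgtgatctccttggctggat
A match to CCAAT on either strand occurs in 37.4% of the 32851 promoter sequences of 300 bases in the same table, so the motif alone is common.

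H2-Ab1 (beta chain of I-A, chromosome 17, 34263209 to 34269418) was at 0.37 and 0.71 TPM in Abl.2 and at 258 and 231 TPM in Abl.4. The difference was -7.32 ± 0.14 (SE; limma, Benjamini-Hochberg adjusted p = 1.49e-06). Both Abl.4 libraries lay far above both Abl.2 libraries. H2-Aa, the partner alpha chain, was at 0 and 0.46 TPM against 17.2 and 15.7 TPM, and H2-Eb1, the I-E beta chain, at 0 and 0.12 TPM against 4.88 and 5.85 TPM. Ciita itself was at 0.12 and 0.08 TPM against 2.27 and 2.56 TPM, a difference of -1.63 ± 0.20 (limma, Benjamini-Hochberg adjusted p = 0.00141). The peptide-editing genes H2-Oa and H2-Ob were also called lower, by -0.78 and -0.88. Cd74 ran the other way. It was at 418 and 422 TPM in Abl.2 and 255 and 224 TPM in Abl.4, a difference of 0.81 ± 0.092 (adjusted p = 0.00105), with no overlap between clones. H2-DMb2 was called higher too, whereas H2-DMa, H2-DMb1 and the 3 subunits of the RFX factor that binds class II promoters were not called and lay between -0.18 and 0.19. In all, 6 of 13 members were lower and 2 higher, against 18.4% and 15% of all genes.

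The pre-B cell receptor itself was kept at high level in both clones. Igll1, the lambda5 surrogate light chain, was at 4125 and 4082 TPM against 3755 and 3731 TPM and was not called by limma. Ighm, the mu heavy chain, was at 4497 and 4319 TPM in Abl.2 and 4757 and 4354 TPM in Abl.4, with overlapping values. Cd79a, a signalling chain of the receptor, also overlapped between clones. On summed allelic counts both Igll1 and Cd79a were called lower in Abl.2, Igll1 by -0.283 (edgeR, Benjamini-Hochberg adjusted p = 0.0257) and -0.266 (DESeq2, adjusted p = 0.0196), and Cd79a by -0.291 (edgeR, adjusted p = 0.049) and -0.274 (DESeq2, adjusted p = 0.0435). Vpreb1 was called higher by 0.32 and Cd79b lower by -0.29, and each lost its call when any single library of Abl.2 or Abl.4 was left out; Vpreb1 was -0.059 by edgeR on summed allelic counts. The light chain constant region Igkc stood apart. It was at 303 and 278 TPM in Abl.2 and 24.4 and 19.3 TPM in Abl.4, a difference of 3.68 ± 0.29 (limma, Benjamini-Hochberg adjusted p = 0.000211), and Iglc2 of the lambda locus was 1.01 higher at levels below 4 TPM. Fcrla, an intracellular Fc receptor-like protein of B cells, was at 3.21 and 3 TPM against 47.1 and 53.9 TPM. Of 10 tested members 7 were called (70%, against 33.5% of all genes), 4 higher and 3 lower, and 3 were called when any single Abl.2 or Abl.4 library was left out. By edgeR on summed allelic counts, which hold neither Igkc nor Ighm, 4 were lower and 0 higher. Because immunoglobulin segments resemble each other and are rearranged, their values depend on how reads were assigned.

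Genes of V(D)J recombination were called in 37.5% of cases, near the 33.5% of all genes, with 3 of 16 higher and 3 lower, or 2 higher and 6 lower by edgeR on summed allelic counts. Rag1, the catalytic part of the recombinase, was at 22 and 24.6 TPM in Abl.2 and 9.84 and 12.9 TPM in Abl.4 (0.98 ± 0.16; limma, Benjamini-Hochberg adjusted p = 0.00506), and lost its call without the second Abl.2 library. Its partner Rag2 was at 17 and 21.2 TPM against 23.6 and 26.3 TPM and was not called. Dntt, the template-independent polymerase that adds N nucleotides at junctions, was at 2.34 and 3.57 TPM against 12.5 and 12.4 TPM, a difference of -1.79 ± 0.22. Polm, a related polymerase of end joining, was also lower, by -1.10. Xrcc5, which encodes the Ku80 end-binding protein, was at 36.1 and 38.4 TPM in Abl.2 and 10.4 and 12.2 TPM in Abl.4, with no overlap (1.64 ± 0.11; adjusted p = 0.00013). In Abl.4 the maternal allele held 0.00296 and 0.00283 of 1014 and 1059 counts, and in Abl.2 it held 0.614 and 0.586 of 3706 and 4897 counts. The paternal counts differed by 0.45 on the log2 scale and the maternal ones by 9.24.

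**Figure D2:**
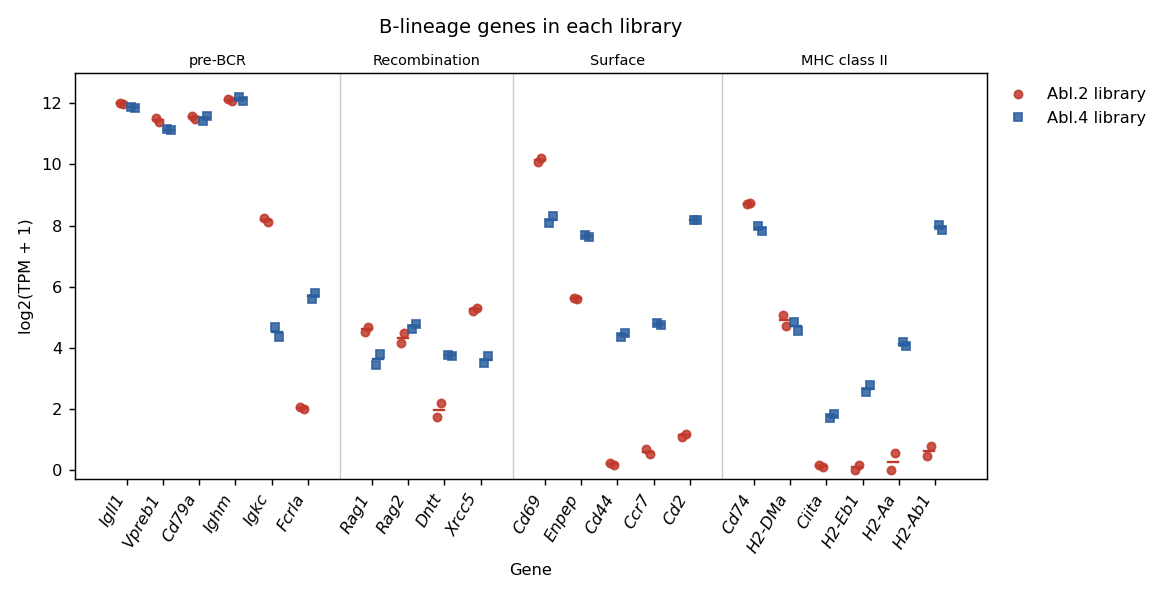
Level of B-lineage genes as log2(TPM + 1) in each Abl.2 library (red circles) and Abl.4 library (blue squares), with short lines at the clone means, grouped by role. Igll1, Cd79a and Ighm have like levels in both clones, while Cd2, Cd44, Ccr7, Ciita, H2-Aa, H2-Ab1 and H2-Eb1 lie near 0 in Abl.2 and higher in Abl.4.

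Several lineage-defining transcription factors were not called. Ebf1, which specifies the B lineage, was at 179 and 171 TPM against 186 and 188 TPM, and Ikzf1, Spi1, Irf4 and Myb lay between -0.27 and -0.03. Pax5, the commitment factor, was called higher by 0.49 (246 and 207 TPM against 156 and 165 TPM), a call lost without the first Abl.2 library, when either Abl.4 library was left out, and by both count tests. Of the Id inhibitors of E proteins, Id3 and Id2 were higher in Abl.2 and Id1 was lower by -1.38. Id3, on chromosome 4, was at 455 and 457 TPM against 113 and 100 TPM, a difference of 2.09. Id2 was at 99.1 and 106 TPM against 44.5 and 43.9 TPM, a difference of 1.19. Tcf3, which encodes the E2A proteins that Id factors bind, was higher as well, at 969 and 855 TPM against 604 and 521 TPM. Foxo1, Sox4, Erg and Etv6 were also higher, by 0.35, 0.89, 0.96 and 0.34. Of the lower members, Klf2, a quiescence and trafficking factor, was at 27 and 26.2 TPM against 82.7 and 79.3 TPM. Pou2f2, the octamer factor Oct2, was at 12.8 and 12.3 TPM against 41.9 and 33.3 TPM, and its coactivator Pou2af1 was lower by -0.62. Irf8, Spib, Ikzf3 and Gfi1b were lower by -1.12, -1.17, -1.19 and -1.35, and Bach2, Ets1 and Mef2c by -0.97, -0.58 and -0.97. Lef1, which accompanies the pro-B stage, was at 94.3 and 83.9 TPM against 156 and 150 TPM. Its maternal share was 0.0129 and 0.0159 in Abl.2 and 0.464 and 0.472 in Abl.4, and the paternal counts differed by 0.30 on the log2 scale. Over the list, 8 of 30 were higher and 11 lower, against 15% and 18.4% of all genes; the higher members numbered 4 without the first Abl.2 library and 5 without the second Abl.4 library.

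Of surface molecules, 10 of 22 stage markers and 11 of 18 homing and adhesion genes were lower in Abl.2 and 3 of each were higher, against 18.4% lower and 15% higher among all genes. Cd2, an adhesion molecule gained at the pre-B stage in mice (chromosome 3, 101275899 to 101287939), was at 1.11 and 1.27 TPM in Abl.2 and 288 and 291 TPM in Abl.4. Its difference was -7.05 ± 0.12 (limma, Benjamini-Hochberg adjusted p = 8.91e-07). Enpep, the BP-1 antigen of late pro-B and pre-B cells, was at 48.4 and 47.6 TPM against 205 and 196 TPM. Ly86, the MD-1 protein, and its receptor partner Cd180 were lower by -3.89 and -1.49. The inhibitory coreceptor Cd22 and the ectoenzyme Cd38 were lower by -2.00 and -1.87. Among receptors that guide migration, Ccr7, the lymph node homing receptor, was at 0.61 and 0.43 TPM against 27.3 and 25.9 TPM. Cd44, a hyaluronan receptor, was at 0.18 and 0.11 TPM against 19.3 and 21.5 TPM, and S1pr1, the egress receptor, at 4.43 and 5.32 TPM against 34.6 and 33.9 TPM. Higher in Abl.2 were Cd69, which binds S1pr1 and pulls it from the surface (1084 and 1194 TPM against 269 and 315 TPM), and S1pr4 (112 and 98.1 TPM against 31.4 and 29.9 TPM). Spp1, the secreted ligand osteopontin, was at 383 and 409 TPM in Abl.2 and 103 and 98.2 TPM in Abl.4. In none of these genes did the libraries of the clones overlap.

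Kinases and adaptors of the B-cell receptor were lower in 15 of 29 cases and higher in 4, against 18.4% and 15% of all genes. Blk, a SRC-family kinase largely restricted to B cells (chromosome 14, 63372836 to 63417037), was at 2.89 and 2.93 TPM in Abl.2 and 194 and 182 TPM in Abl.4 (-5.59 ± 0.091; limma, Benjamini-Hochberg adjusted p = 8.91e-07). Lyn, of the same family, was lower by -0.64, whereas Fyn, on chromosome 10, was higher by 0.92 and Lck was not called. Of the list's 2 tested members on chromosome 4, 1 was lower and the other was not called. Prkcb, a protein kinase C that acts below the receptor, was lower by -2.23. The core transducers differed by less than 0.5. Syk was at 141 and 142 TPM against 182 and 196 TPM, Blnk at 427 and 443 TPM against 605 and 623 TPM, and Btk was not called. Ptpn22, a phosphatase that restrains SRC and SYK family kinases, was at 22.2 and 24.9 TPM in Abl.2 and 2.05 and 2.39 TPM in Abl.4, a difference of 2.93.

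In the PI3K list 3 of 24 were higher and 7 lower, and 4 were called without the first Abl.2 library and 6 without the second Abl.4 library, 2 and 4 of them lower. Called members were 41.7% of the list, against 33.5% of all genes. Mtor, the kinase of both TOR complexes (chromosome 4, 148448611 to 148557683), was at 28.3 and 29.7 TPM in Abl.2 and 344 and 330 TPM in Abl.4 (-3.50 ± 0.080; limma, Benjamini-Hochberg adjusted p = 2.65e-06). Angptl7 lies within its span on the opposite strand. The complex partners Rptor and Rictor were at 0.34 (called) and -0.07 (not called). Pik3cd, the leukocyte PI3K catalytic subunit, was at 396 and 376 TPM against 234 and 224 TPM. Pik3ap1, its BCAP adaptor, was lower by -1.92. Akt1 and Akt2 were not called.

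Several feedback genes of cytokine signalling were higher in Abl.2. Cish, an early STAT5 target that blocks receptor docking, was at 398 and 370 TPM in Abl.2 and 98.8 and 99.7 TPM in Abl.4 (1.94 ± 0.083; limma, Benjamini-Hochberg adjusted p = 2e-05). Socs1, a JAK inhibitor, was at 179 and 154 TPM against 46.1 and 32.8 TPM, and Socs2, on chromosome 10, at 1408 and 1476 TPM against 754 and 723 TPM. Pim1, Pim2 and Pim3, survival kinases induced by STAT5, were higher by 0.50, 1.25 and 0.84. The signal carriers themselves were not called: Jak1, Jak2, Jak3, Stat5a and Stat5b lay between -0.20 and 0.20. Il2ra, the high-affinity IL-2 receptor chain, was higher at 4.24 and 5.36 TPM against 0.69 and 0.67 TPM, and Il6ra lower by -1.23. Il7r, the receptor that supports normal pro-B cells, was lower by -0.38 at an adjusted p of 0.0483 (limma, Benjamini-Hochberg), a call lost in 11 of 15 alternative fits. The Abl1 gene, of which v-Abl is a viral derivative, was at 1279 and 1185 TPM against 914 and 840 TPM; whether viral transcripts were counted there was not tested. In this list 12 of 40 were higher and 9 lower (52.5% called, against 33.5% of all genes), and 13 were called when either Abl.2 library was left out, with 4 and 2 of them lower.

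RAS-MAPK genes were called in 17 of 38 cases (44.7%, against 33.5% of all genes), 9 higher and 8 lower; 4 were lower without the second Abl.2 library. Spry1, a feedback inhibitor of receptor-driven RAS activation (chromosome 3, 37639947 to 37644598), was at 346 and 307 TPM in Abl.2 and 34.8 and 29.9 TPM in Abl.4 (3.30 ± 0.11; limma, Benjamini-Hochberg adjusted p = 8.7e-06). Spry4 was higher by 1.31. Of other feedback genes, Dusp7 and Spred2 were higher by 0.53 and 0.41 and Dusp10 was lower by -0.78, while Dusp1, Dusp2, Dusp4, Dusp5, Dusp6, Spry2 and Spred1 were not called. Dusp6, an ERK phosphatase, was at 212 and 198 TPM against 217 and 171 TPM. The AP-1 genes divided. Jun, on chromosome 4, was at 1204 and 925 TPM against 396 and 345 TPM, and Junb was higher by 1.01. Fos was at 52 and 51.3 TPM against 177 and 152 TPM, and Fosb was lower by -1.98. Myc overlapped between the clones, at 602 and 541 TPM against 566 and 463 TPM.

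NF-kB genes were higher in 8 of 33 cases and lower in 5, and 8 were called when either Abl.2 library was left out, 5 higher and 3 lower. Called members were 39.4% of the list, against 33.5% of all genes. Ltb, which encodes the membrane ligand lymphotoxin beta, was at 41.5 and 36 TPM in Abl.2 and 6.8 and 4.23 TPM in Abl.4, and Tnf was higher by 1.40. Of receptors, Tnfrsf13c, which binds BAFF, was lower, at 13.5 and 12.9 TPM against 41.9 and 40.8 TPM. Tnfaip3, the A20 inhibitor and a target of the pathway, was at 152 and 147 TPM against 36.3 and 33.4 TPM, and Relb and Nfkb2 of the noncanonical branch were higher by 1.73 and 1.45. Nfkb1, Rela and the IkB alpha gene Nfkbia were not called.

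Of TGF-beta genes 2 of 21 were higher and 5 lower, or 4 and 7 by edgeR on summed allelic counts, and 3 were lower without the first Abl.2 library. The called share was 33.3% for this list, 26.1% for the Wnt list and 33.3% for the Notch list, near or below the 33.5% of all genes. Smad3, a receptor-activated transcription factor (chromosome 9, 63646767 to 63757994), was at 146 and 138 TPM in Abl.2 and 16.8 and 16.2 TPM in Abl.4 (3.03 ± 0.12; limma, Benjamini-Hochberg adjusted p = 1.56e-05). Its close relative Smad2 was at 52.1 and 54.1 TPM against 48.5 and 51.4 TPM and was not called. Bmpr2, a BMP receptor, was higher by 2.04, and the ligand Tgfb3 lower, at 49.2 and 49.1 TPM against 246 and 225 TPM. Smad7, the inhibitory Smad, was lower by -0.85 and Id1, a BMP target, by -1.38, a call that DESeq2 on allelic counts did not make. The Wnt list had 2 of 23 higher and 4 lower, with Tcf7 lower by -1.30 at levels up to 3.05 TPM, and 3 were called without the first Abl.2 library. The Notch list had 5 of 18 higher and 1 lower, led by Psen2, a gamma-secretase subunit, at 1.05, while Notch1 and Notch2 were not called. Without the first Abl.2 library 2 Notch genes were called, and without the second Abl.4 library 3.

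Interferon-response genes were the most one-sided list. Of 32 tested, 26 were higher in Abl.2 and 1, Phf11b, was lower, against 15% and 18.4% of all genes, and the median difference was 0.89 against -0.027 for all genes. Rtp4, a negative feedback regulator of the response, was at 16.1 and 15.9 TPM in Abl.2 and 0.4 and 1.09 TPM in Abl.4 (3.31 ± 0.22; limma, Benjamini-Hochberg adjusted p = 0.000103). Irf7, the factor that amplifies type I interferon induction, was at 25.4 and 25.5 TPM against 3.15 and 4.11 TPM, and Ifit3, an antiviral effector, at 8.76 and 10.4 TPM against 0.7 and 1.01 TPM. Stat2 and Irf9, which carry the interferon signal to the nucleus, were higher by 0.82 and 0.70; Stat2 lies on chromosome 10. Levels were low for many members, and 8 antiviral genes, among them Mx1, Oas2 and Rsad2, did not pass the filter. Bst2, at 28.3 and 25.3 TPM against 28.8 and 24.8 TPM, did not differ beyond its spread. Leaving out single libraries gave 22 to 27 called members. Members of the Ifit, Oas and Ifi families resemble each other in sequence, and their values are uncertain to that extent.

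**Figure D3:**
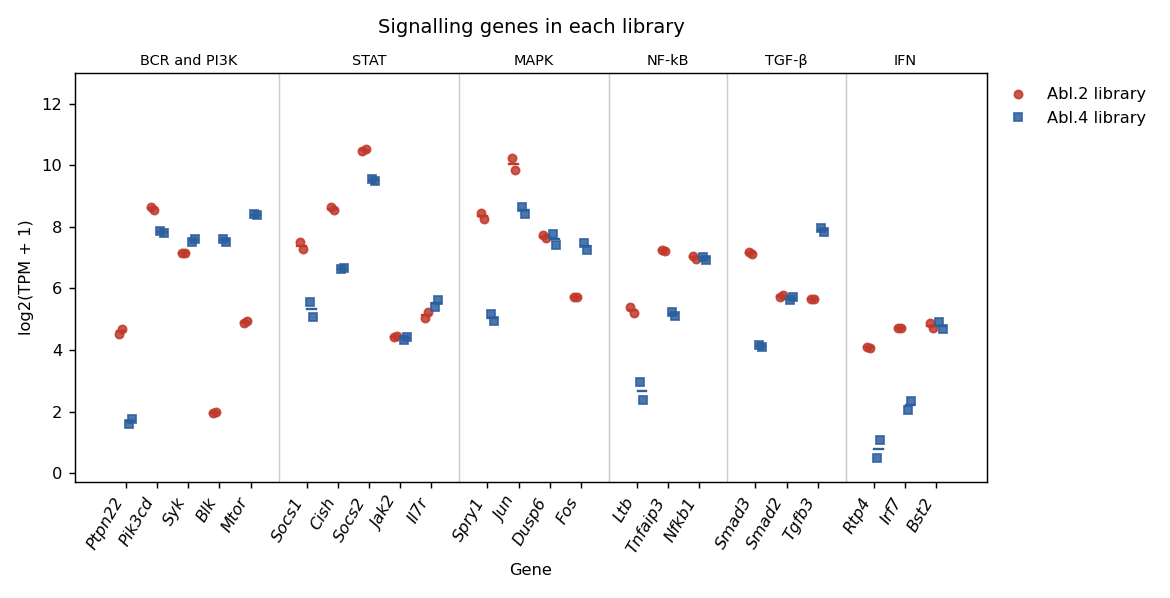
Level of signalling genes as log2(TPM + 1) in each Abl.2 library (red circles) and Abl.4 library (blue squares), with short lines at clone means. Socs1, Cish, Spry1, Smad3, Ltb, Tnfaip3, Rtp4 and Irf7 are higher in Abl.2 and Blk, Mtor, Fos and Tgfb3 lower, beside Jak2, Dusp6, Nfkb1, Smad2 and Bst2 with like values in both clones.

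Among G1 and p53 genes 8 of 30 were higher and 12 lower (66.7% called, against 33.5% of all genes), falling to 11 and 12 called members without the first and the second Abl.2 library, of which 4 were higher in the former and 7 and 6 lower. The INK4 and ARF locus on chromosome 4 was higher. Cdkn2b, which encodes the CDK inhibitor p15, was at 26.9 and 25.3 TPM in Abl.2 and 4.34 and 5.4 TPM in Abl.4, and its neighbour Cdkn2a at 9.34 and 8.56 TPM against 3.96 and 2.15 TPM. Some other inhibitor genes, though not all that were called, ran the opposite way. Cdkn2c, also on chromosome 4, was at 60.7 and 56.5 TPM against 157 and 140 TPM. Cdkn1c was lower by -1.49, a call lost when either Abl.2 library was left out. Cdk6, a kinase that p15 and p16 inhibit, was higher by 1.15. The D cyclins of G1 were lower: Ccnd1 was at -1.38, Ccnd2 was at 89.1 and 88.9 TPM against 165 and 153 TPM, and Ccnd3 was lower by -0.45. Of the BCL2 family 1 of 14 was higher and 4 lower, 35.7% called against 33.5% of all genes. Pmaip1, the BH3-only protein NOXA, was at 0.27 and 0.55 TPM against 4.9 and 7.47 TPM, and Bnip3, a mitophagy receptor, at 143 and 136 TPM against 450 and 505 TPM. Mcl1, Bcl2l1 and Bcl2 were not called. With either Abl.2 library, the second Abl.3 library or the second Abl.4 library left out, 3 members were called.

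Most genes of the glycolysis list were lower in Abl.2. Of 27 tested members 18 were lower and 2 higher, against 18.4% and 15% of all genes, and the median difference was -0.74. By edgeR on summed allelic counts 13 of 21 were lower and 4 higher, with a median of -0.458. The list also holds Fbp1, a gluconeogenic enzyme that works against glycolysis, which was lower by -1.99. At entry, the glucose transporter Slc2a1 was at 55.4 and 55.4 TPM in Abl.2 and 142 and 132 TPM in Abl.4, and Hk2, an inducible hexokinase, at 3.08 and 2.58 TPM against 8.11 and 11 TPM. Pfkp, a phosphofructokinase at the committed step, was at 65.4 and 65 TPM against 214 and 213 TPM (-1.70 ± 0.067; limma, Benjamini-Hochberg adjusted p = 1.59e-05). Aldoa, which splits fructose bisphosphate, was at 759 and 735 TPM against 2299 and 2107 TPM. Further down, Pgk1 was at 294 and 303 TPM against 722 and 715 TPM, and Ldha, which makes lactate, at 2465 and 2371 TPM against 4256 and 3855 TPM. In none of these genes did the clones overlap. The largest difference was in Slc16a3, the lactate exporter MCT4 (chromosome 11, 120948480 to 120960868), at 0.17 and 0.78 TPM in Abl.2 and 190 and 160 TPM in Abl.4 (-6.93 ± 0.21; limma, Benjamini-Hochberg adjusted p = 6.28e-06). Eno1, an enolase on chromosome 4, was at 1684 and 1640 TPM against 1925 and 1728 TPM and was not called. Slc2a6, another hexose transporter, ran opposite at 78.3 and 77.2 TPM against 12.1 and 9.52 TPM.

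Hexokinase transcripts were also unequal between alleles. The maternal share of Hk2 was 0.00619 and 0.0038 in Abl.2 and 0.495 and 0.546 in Abl.4, from 485 to 1287 counts per library, and the paternal counts differed by -0.53 on the log2 scale. Hk1, on chromosome 10, was lower in Abl.2, at 38 and 38.5 TPM against 99.6 and 85 TPM, with maternal counts lower by -2.99 and paternal counts by -0.64. Hk1os lies within the Hk1 span on the opposite strand.

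Called members were 23.3% of the pyruvate dehydrogenase and TCA list and 24.6% of the respiratory chain list, both below the 33.5% of all genes. Of 30 pyruvate dehydrogenase and TCA genes 4 were higher and 3 lower, with 2 called when either Abl.2 library was left out and 4 without the second Abl.4 library; citrate synthase Cs, on chromosome 10, was at 254 and 260 TPM against 149 and 157 TPM. Of 69 nuclear respiratory chain and ATP synthase genes 12 were higher and 5 lower. Of these 12, 5 lie on chromosome 10, where all 5 tested subunits were higher, among them Uqcr11 at 0.99 and Ndufs7 at 0.83. Elsewhere than on chromosomes 4 and 10, 7 of 61 subunits were higher and 5 lower. The balance of this list turns with the data and the fit used: by edgeR on summed allelic counts 3 were higher and 10 lower. With the replicate number as a block, a fit that gave 4608 calls in all, 15 were higher and 13 lower. Without the first Abl.2 library 6 were called, without the second 4 and without the second Abl.4 library 8, and 10 with no filter on low values. Cycs, cytochrome c, was at 36 and 41.2 TPM against 72.9 and 123 TPM, and it lost its call in both count tests, where its allelic counts differed by -0.28 and -0.29 for the maternal and paternal allele. Cox6a2, a cytochrome c oxidase subunit that is not on the list, was at 0.22 and 0.85 TPM against 104 and 105 TPM. In the pentose phosphate list 1 of 8 was higher and 1 lower (25% called, against 33.5% of all genes), and neither was called without the first Abl.2 library.

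Cholesterol synthesis and its regulators had 10 of 28 higher and 3 lower (46.4% called, against 33.5% of all genes), with 6 higher without the first Abl.2 library. Lss, which closes the sterol ring, was at 64.6 and 68.4 TPM in Abl.2 and 30.7 and 30.8 TPM in Abl.4 and lies on chromosome 10; Mvd and Mvk, of the mevalonate steps, were higher by 0.92 and 0.82. Of fatty acid genes 4 of 31 were higher and 6 lower, 32.3% called against 33.5% of all genes. With the replicate number as a block, a fit that gave 4608 calls in all, 7 were higher and 11 lower. Scd1, a stearoyl-CoA desaturase, was at 3.91 and 4.46 TPM against 33.6 and 36.2 TPM (-2.79 ± 0.11; limma, Benjamini-Hochberg adjusted p = 1.55e-05). Its paternal counts were lower by -7.57 and its maternal counts by -1.62. Acaa2, a mitochondrial thiolase, was at 87.4 and 88.2 TPM against 39 and 39.4 TPM, with paternal counts 2.39 higher and maternal counts 0.12 higher. The uptake receptor Cd36 was lower by -2.72.

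Of 30 amino acid transport and ATF4-target genes 15 were lower and 6 higher, against 18.4% and 15% of all genes, or 3 higher by either count test. Asns, asparagine synthetase, was at 336 and 343 TPM in Abl.2 and 802 and 759 TPM in Abl.4 (-1.20 ± 0.067; limma, Benjamini-Hochberg adjusted p = 5.55e-05), and the large transporter Slc7a5 was lower by -0.64. Atf4 itself was higher by 0.24, a call lost in 6 of 15 alternative fits, among them those that left out either Abl.2 library. The stress factors Ddit3 and Atf3 were higher too, Ddit3 at 219 and 212 TPM against 69.7 and 70.9 TPM. Ddit3 lies on chromosome 10 and its span overlaps Mars on the opposite strand. Among serine, one-carbon and nucleotide genes 8 of 39 were higher and 8 lower, and 10 were called without the first Abl.2 library, 4 of them higher. The list's called share was 41%, against 33.5% of all genes. Psph, the last enzyme of serine synthesis, was at 26.1 and 26.1 TPM against 70.8 and 69.2 TPM, and Rrm2, a ribonucleotide reductase subunit, at 265 and 288 TPM against 703 and 637 TPM.

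Metallothioneins bind zinc and copper in the cytosol, and their genes are induced by metals through Mtf1, which recognises short metal response elements. Both tested metallothionein genes were higher in Abl.2. The stretches before their starts on chromosome 8, chr8:94178889-94179088 for Mt1 and chr8:94172418-94172617 for Mt2, are shown because the genes are neighbours that differed in the same direction. They come from RefSeq, plus strand of GRCm38.p6, 5′ to 3′, and end at the base before the start that RefSeq annotates. The deposited table places both starts elsewhere, so that the Mt1 stretch runs past its start there and the Mt2 stretch ends short of it. Capitals mark the metal response element core, TGCGCNC or TGCACNC, searched on both strands with overlaps allowed.
Mt1: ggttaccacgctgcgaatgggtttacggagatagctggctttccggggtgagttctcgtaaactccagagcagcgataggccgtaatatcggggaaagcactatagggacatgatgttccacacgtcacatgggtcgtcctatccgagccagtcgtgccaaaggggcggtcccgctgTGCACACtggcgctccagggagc
Mt2: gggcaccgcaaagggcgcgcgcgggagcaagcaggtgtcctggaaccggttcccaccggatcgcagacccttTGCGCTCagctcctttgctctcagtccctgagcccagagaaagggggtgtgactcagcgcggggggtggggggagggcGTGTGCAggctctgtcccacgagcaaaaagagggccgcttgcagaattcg
The Mt1 match starts 23 bases before the RefSeq start, and those of Mt2 start 128 and 50 bases before it. Over the full 300 bases of each promoter in the table Mt1 had 3 matches, 2 of them after the RefSeq start, and Mt2 had 4. At least 1 match occurs in 25.7% of the 32851 promoter sequences and 3 or more in 1.97%.

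Mt1 (chromosome 8, 94179082 to 94180327) was at 950 and 884 TPM in Abl.2 and 50.1 and 69.1 TPM in Abl.4. The difference was 3.94 ± 0.15 (SE; limma, Benjamini-Hochberg adjusted p = 1.33e-05), with no overlap between the clones. Mt2 was at 44.8 and 43.1 TPM against 4.24 and 7.49 TPM. The Mt1 maternal share was 0.971 in both Abl.2 libraries and 0.701 and 0.742 in those of Abl.4, and the maternal counts differed by 4.28 and the paternal ones by 0.60. Mtf1 was not called, at 23 and 29.6 TPM against 25.8 and 26.8 TPM. Hmox1, the heme-degrading enzyme, was lower, at 2.28 and 2.53 TPM against 14.5 and 12.5 TPM, and the zinc importer Slc39a14 was lower by -1.05. In the whole metal and redox list 9 of 34 were higher and 8 lower (50% called, against 33.5% of all genes), and 10 were called without the first Abl.2 library, 4 of them higher.

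**Figure D4:**
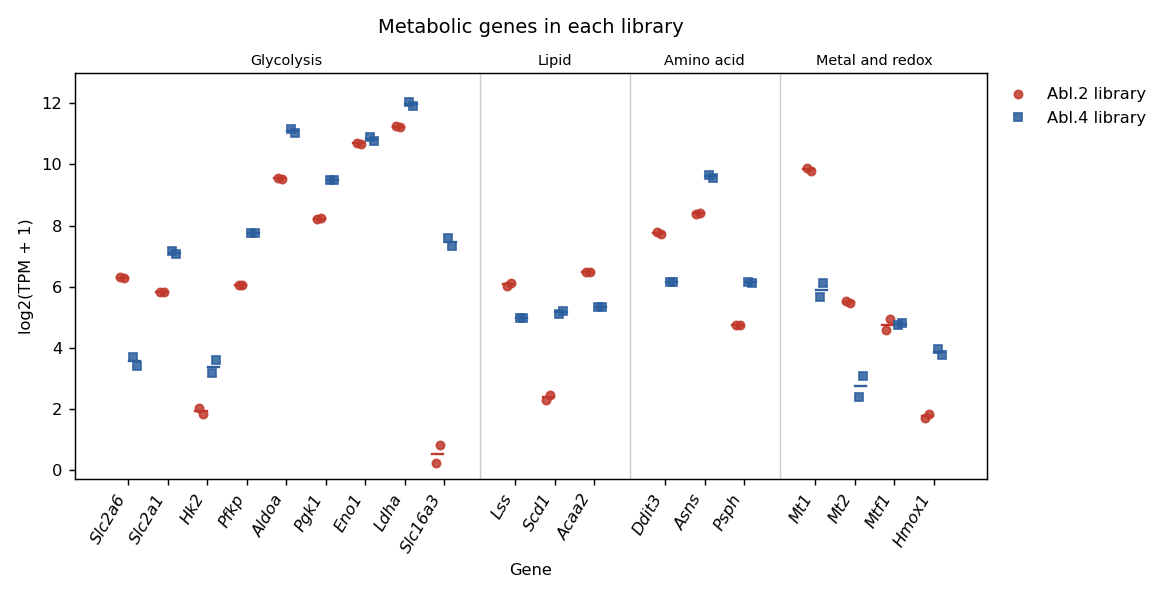
Level of metabolic genes as log2(TPM + 1) in each Abl.2 library (red circles) and Abl.4 library (blue squares), with short lines at clone means. Glycolytic genes from Slc2a1 to Slc16a3 lie lower in Abl.2 apart from the near-equal Eno1, and Mt1 and Mt2 lie higher beside an equal Mtf1.

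Many of the largest differences lay outside the lists. Among genes with a mean log2 level of at least 3, leaving out those with only a model name, the largest positive differences were in Ifitm1 (5.99), an interferon-inducible membrane protein with close paralogs, Fetub (5.82), a secreted protease inhibitor, and Plin3 (5.34), a lipid droplet coat protein. Ifitm1 was at 223 and 199 TPM in Abl.2 and 2.64 and 2.02 TPM in Abl.4. Fam129c, a B-cell protein, was at 550 and 487 TPM against 42 and 27.6 TPM. Vdr, the vitamin D receptor, was at 32 and 31.3 TPM against 1.65 and 2.09 TPM. The largest negative difference after H2-Ab1 was in Dmwd, at 0.41 and 0.55 TPM against 220 and 199 TPM. Dap, Pcp4, Cox6a2, Fam92a and Igfbp4 lay between -5.87 and -6.20. Each of these genes was close to absent in both libraries of Abl.2.

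Smad3, Spry1 and Fam129c shared with Mt1 a difference carried by 1 allele. The Smad3 maternal share was 0.948 and 0.946 in Abl.2 and 0.476 and 0.475 in Abl.4, and its maternal counts differed by 4.08 and its paternal counts by -0.23. For Spry1 the maternal counts differed by 4.26 and the paternal ones by 0.33, and for Fam129c by 4.44 and -0.32. Bmpr2 was the reverse, with paternal counts 3.89 higher and maternal counts 0.23 higher, from 22 and 24 counts in Abl.4. Other differences ran through both alleles: for Blk the maternal and paternal counts differed by -5.44 and -6.80, for Cish by 2.22 and 2.05, and for Asns by -1.19 and -1.15. These values describe the 2 clones and carry no test.

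Chromosome 10 as a whole was higher in Abl.2. Of its 511 tested genes 310 were called (60.7%, against 32.2% on the autosomes other than 4 and 10), 269 higher and 41 lower. The median difference was 0.44, which is 0.49 ± 0.013 above that of the other autosomes (SD from the spread between the replicates of both clones), and all 7 windows of 20 Mb lay between 0.34 and 0.60 above it. With no filter on low values it was 0.264. Across the 17 autosomes other than 4 and 10, the called share was 29% to 37.2%. For genes of at least 10 TPM the median ratio of Abl.2 to Abl.4 was 1.43 on chromosome 10 and 0.981 on the other autosomes. Without the first and the second Abl.2 library the chromosome 10 calls were 194 and 190. The rise was on the paternal side. Over 415 genes with at least 20 allelic counts in every library, the median maternal share was 0.338 and 0.337 in Abl.2 and 0.502 and 0.504 in Abl.4, paternal counts differed by a median of 0.95 and maternal counts by -0.023.

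That background bears on the lists, since 27 of 35 list members on chromosome 10 were called, 21 of them higher (77.1% called, against 46.5% of 624 members on chromosomes other than 4 and 10). For Socs2, Tcf3, Cs and Lss the paternal counts were higher by 1.18, 1.28, 1.20 and 1.71, and the maternal counts by 0.34, 0.27, 0.17 and 0.68. Differences well beyond the chromosome's median were seen in Nab2, a corepressor of EGR factors whose span overlaps Stat6 (61.8 and 49.8 TPM against 11.1 and 9.11 TPM), Tnfaip3, Sgk1, a kinase of the PI3K pathway (354 and 352 TPM against 120 and 107 TPM), S1pr4 and Ddit3. For Tnfaip3 both alleles were higher, by 1.86 and 2.41. Against the chromosome's direction ran Arid3a, a B-cell transcription factor (6.18 and 5.59 TPM against 20.8 and 18.9 TPM), the antiproliferative Btg1, the integrin Itgb2 and Hk1. Gstt2, a glutathione transferase, was lower by -1.60, a call that DESeq2 on allelic counts did not make.

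Chromosome 4 differed in its alleles and little in its totals. In Abl.2 the median maternal share over 531 genes was 0.998 in both libraries, against 0.503 and 0.505 in Abl.4. Maternal counts were higher in Abl.2 by a median of 1.03 and paternal counts lower by -7.66, while the sum of both differed by 0.053. In TPM, 245 of 699 genes were called (35.1%), 126 higher and 119 lower, and the median lay 0.048 ± 0.0062 above the other autosomes. Without the first and the second Abl.2 library 138 and 146 were called. The 8 windows ranged from -0.16 to 0.13 relative to the other autosomes, and with no filter on low values the whole chromosome was at 0.0191. Of 44 list members on chromosome 4, 20 were called (45.5%), 9 higher and 11 lower.

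Single genes of chromosome 4 departed in both directions from that rise of the maternal allele or, in TPM, from the chromosome's small difference in totals. For Pik3cd the maternal counts were 1.93 higher and for Cdkn2b 3.58, while Pax5, at 1.26, lay near the chromosome's median of 1.03. Sit1, an adaptor that inhibits antigen receptor signalling, was at 234 and 217 TPM in Abl.2 and 56.5 and 45.3 TPM in Abl.4, and Rragd, a GTPase that recruits TOR complex 1 to lysosomes, at 18.7 and 19.1 TPM against 2.69 and 2.69 TPM. For Mtor the maternal counts were lower by -2.39, and for Themis2, a signalling scaffold of B cells, by -1.10. Aco1, a cytosolic aconitase, was read from the maternal allele in both clones, with a share of at least 0.998 in each library. It was at 35.5 and 35.9 TPM against 19.7 and 19.1 TPM, a call lost at a pseudocount of 0.1 and in 4 of the fits that left a library out.

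**Figure D5:**
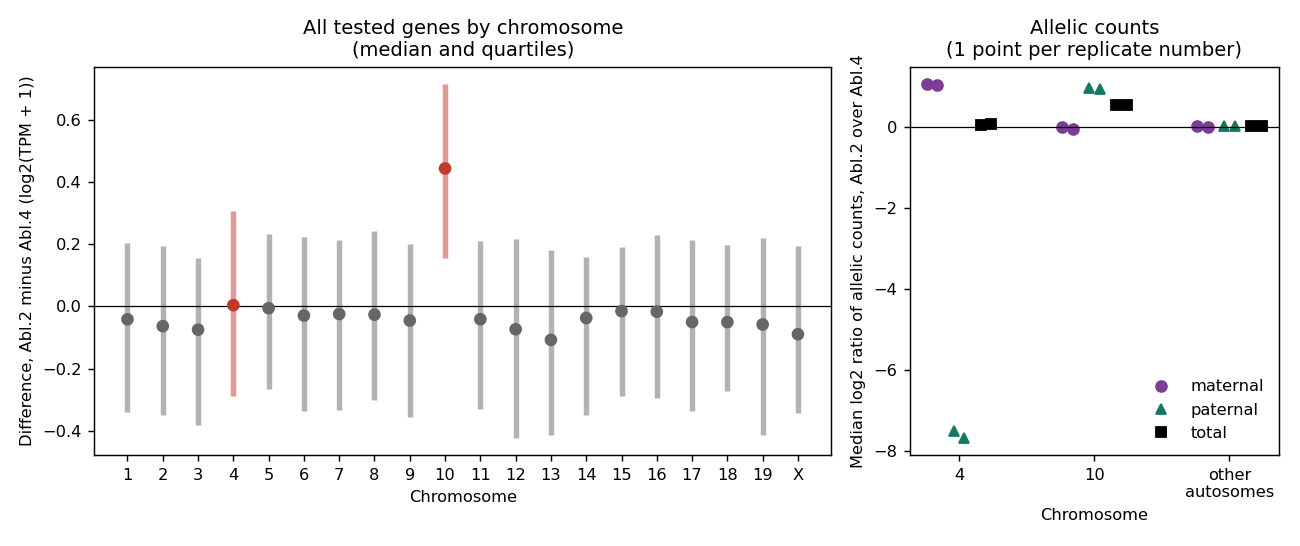
Left: median (point) and quartiles (bar) of the difference in log2(TPM + 1), Abl.2 minus Abl.4, over the tested genes of each chromosome, with 4 and 10 in red. Right: median log2 ratio of library-scaled allelic counts for the maternal allele, the paternal allele and their sum, with 1 point per replicate number. Chromosome 10 is raised at 0.44 through its paternal allele, and chromosome 4 stays at 0.004 with its maternal allele at about 1.03 and its paternal allele at -7.66.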

How the data were processed

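RNA-seq libraries of 3 clones, 2 each, were compared. The deposited abundance table holds TPM, obtained with DESeq2 per the file headers. Maternal and paternal counts per gene at SNPs were deposited in a second table, per the file headers. The submitters' processing notes name STAR 2.5.4a, SAMtools, GATK and DESeq2; strand use in counting is not given in the sources used here. Coordinates are those of the deposited table, where 97.7% of 10869 genes had the start of GENCODE release M21 (GRCm38).

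Genes at or above a mean of 1 TPM over the 6 libraries were tested with limma 3.58.1 in R 4.3.3 (lmFit, eBayes with trend) on log2(TPM + 1), with all 6 libraries in the fit and Benjamini-Hochberg adjustment over 11003 genes. Single genes compared 2 against 2 by an exact permutation test could not go below 0.333, so none was run. Replicates of a clone correlated at 0.99 and 0.986 across genes. Allelic counts were scaled by the library's total over the autosomes other than 4 and 10, with 0.5 added, and carry no test. The steps were tested on simulated data. Alternatives were another pseudocount, other filters, fewer libraries, a replicate block, other scalings, and edgeR 4.0.16 and DESeq2 1.42.0 on summed allelic counts (8783 genes).

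The members and lists were chosen with earlier results of these data known, and some list members are not reported here by name. Named genes were a core set, up to 3 per list and direction with a difference of at least 1 (2 where a list had none), the 12 largest in each direction at a mean log2 level of at least 3, and 6 per direction on chromosomes 4 and 10; others were named after their values were seen. Of 152 named genes tested, 65 overlap another annotated gene, 48 of them on the opposite strand, and such reads could not be told apart.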

Additional observations from a re-analysis of the deposited data

How the results depend on the processing

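The replicate numbers mark library preparations and pair nothing in the labels; same-numbered libraries of Abl.2 and Abl.4 deviated together at a correlation of 0.187 across genes, and a fit with the replicate number as a block gave 4608 calls in all, 319 on chromosome 4, 340 on chromosome 10 and 3778 on the other autosomes. Of the lists, the block moved 2 by over 1.5 times: the respiratory chain list to 28 called (15 higher, 13 lower) from 17, and the fatty acid list to 18 (7 higher, 11 lower) from 10. Of 144 called genes chosen by the naming rule, 127 kept their call and direction under every alternative in which they were tested. Genes named afterwards are not in that count; of these, Abl1, Atf4, Ccnd3, Etv6, Foxo1, H2-DMb2, Pim1, Pim3, Rptor, Sox4 and Spred2 lost their call with at least 1 library left out, and Uqcr11 by both count tests. Other settings gave 3081 to 3822 calls in all, and a difference of at least 1 left 1107. Leaving out 1 library gave 1970 to 3296 calls in all, 138 to 229 on chromosome 4, 190 to 285 on chromosome 10 and 1566 to 2673 on the other autosomes. The median of chromosome 4 relative to the other autosomes was 0.0191 with no filter, 0.062 at 5 TPM, 0.0655 after quantile normalisation, 0.0301 by edgeR, 0.0307 by DESeq2 and 0.0477 to 0.0682 with 1 library left out. That of chromosome 10 was 0.519 at a pseudocount of 0.1, 0.264 with no filter, 0.511 at 5 TPM, 0.538 by edgeR, 0.537 by DESeq2 and 0.467 to 0.487 with 1 library left out. At 50 allelic counts the maternal counts of chromosome 4 differed by 1.04. Directions turned for 5 genes of small difference: by edgeR and DESeq2, Igll1 was -0.283 and -0.266, Vpreb1 -0.0593 and -0.043, and Cd79a -0.291 and -0.274; with 1 library left out Cd79a ranged from -0.0462 to 0.12 and Ighm from -0.11 to 0.0175; Ighm was 0.165 after quantile normalisation and 0.038 after centring; Ebf1 was 0.00694 by DESeq2. Except where fewer genes or libraries entered the fit, the cause was not tested. The depth behind TPM is unknown.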
